A study of Mus musculus with 2 samples.

Results

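The genes described here are the D-type cyclins (Ccnd1, Ccnd2 and Ccnd3), their kinase partners Cdk4 and Cdk6, and 5 inhibitors of those kinases, Cdkn1b and Cdkn1c of the CIP/KIP family and Cdkn2b, Cdkn2c and Cdkn2d of the INK4 family. They were taken as every non-control probe whose gene name on the array is one of these 10. Once probes were renamed through RefSeq where possible, there were 36493 names in all. The 10 genes had 15 probes, each spotted 1 time per array, and 9 of the genes were measured, that is well above background by the scanner software's flag, on both arrays. Expression was compared between 1 array of neural stem and progenitor cells overexpressing the microRNA miR-153 and 1 array of cells labelled as the overexpression control. Both samples were tertiary neurospheres, floating spheres of neural progenitors, which had been made from mouse embryonic stem cells by way of embryoid bodies and were at passage 2, 18 days after the embryoid body stage. The stem cell line, the vector and the promoter that drives the microRNA are not given in the sources used here, and each group is a single sample, so the differences have no replicate check and were not tested.

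In the first gap phase of the cell cycle, D cyclins bind Cdk4 or Cdk6, and the active kinase phosphorylates the Rb proteins, which frees E2f factors to switch on the genes of DNA replication. INK4 proteins bind Cdk4 and Cdk6 directly and keep the D cyclins off, whereas CIP/KIP proteins bind whole cyclin-kinase complexes and chiefly block those of Cdk2. In neural progenitors this balance is known to set whether a daughter cell divides again or leaves the cycle to become a neuron.

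The miRNA and a stretch of 1 probe are shown first, because the probe that stands for Cdkn2b holds the letters that pair with the seed of miR-153-3p. The mature sequence, from RefSeq on GRCm38.p6 (chr12:117250860-117250881, plus strand), has its seed, bases 2 to 8, in capitals. The probe stretch, 30 bases of the sense strand on mm9 at chr4:88952294-88952323 (minus strand), has the seed match and the A that follows it in capitals.
miR-153-3p: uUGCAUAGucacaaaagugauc
Cdkn2b probe stretch: tgtagtggtagcaggttactCTATGCAAaa
The match CTATGCA, searched on the probe's own strand only, was in 1 of the 15 probes of these genes and in 187 of 55681 probes on the array (0.336%), and with the A it was in 56 (0.101%). Among probes measured on both arrays, the 83 with CTATGCA had a median log2 difference of -0.27 and the 27439 in all had -0.11. At least 2-fold lower on the miR-153 array were 13.3% of the 83 and 11.5% of all. Of the 28 measured probes with the A as well, 6 were lower (21.4%), and their median was -0.25. These shares were not tested. The other Cdkn2b probe lacks these letters. A match in a probe of 60 bases says nothing of the rest of a transcript, and the part of the transcript that each probe covers was not annotated in the sources used here.

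Signals are intensities that the scanner software had corrected for background, given with that software's own error for the spot. They are scaled as multiples of each array's 75th percentile of signal, 549 intensity units on the miR-153 array and 435 on the control array, and every difference is a log2 value, the miR-153 array's level less the control array's. The software's error is close to a fixed share of the signal for bright spots, so the error of a difference was 0.20 for most probes here. It is not a measured spread. Among repeat spots of a probe, the median SD of the log2 difference was 0.07 (250 probes). A difference of at least 2-fold was counted as higher or lower, which is a rule of size and not a test. Over 20473 genes measured on both arrays the median difference was -0.11. Well above background were 55.6% of the 59305 non-control spots on the miR-153 array and 52.5% on the control array, and no spot was saturated. All 10 neural progenitor markers, among them Nes and Sox2, were well above background on both arrays. So were all 7 fibroblast and mesenchyme markers on the array, and 6 of 8 pluripotency markers on each array, so detection alone does not set the cell type. Of the blood and microglia markers 5 of 6 were detected on neither array, nor were 3 of 5 endothelial markers, although the endothelial receptor gene Kdr stood at 10.4 times the 75th percentile on the miR-153 array and 16.6 times on the control array.

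Of the 9 genes measured, 4 were at least 2-fold lower on the miR-153 array (Ccnd1, Cdkn2b, Cdkn2c and Cdkn2d), 1 was at least 2-fold higher (Cdkn1c) and 4 lay between (Ccnd2, Ccnd3, Cdk4 and Cdkn1b). Over all genes measured, 11.1% were lower and 9.21% higher by the same rule. Cyclins and kinases did not part cleanly from inhibitors. The cyclins and kinases had 1 of 4 lower and a median of -0.39. The inhibitors had 3 of 5 lower, 1 higher and a median of -1.18, and the 3 lower ones were the INK4 genes among them. The inhibitor median lay 0.79 below that of the cyclins and kinases, a gap that does not move with a scaling constant. With bright probes only, which leaves out the dim Cdkn2b, the inhibitor median was -0.79 and the gap -0.39. Since these are bulk samples, fewer cells that express a gene and less RNA per cell cannot be told apart.

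**Figure D1:**
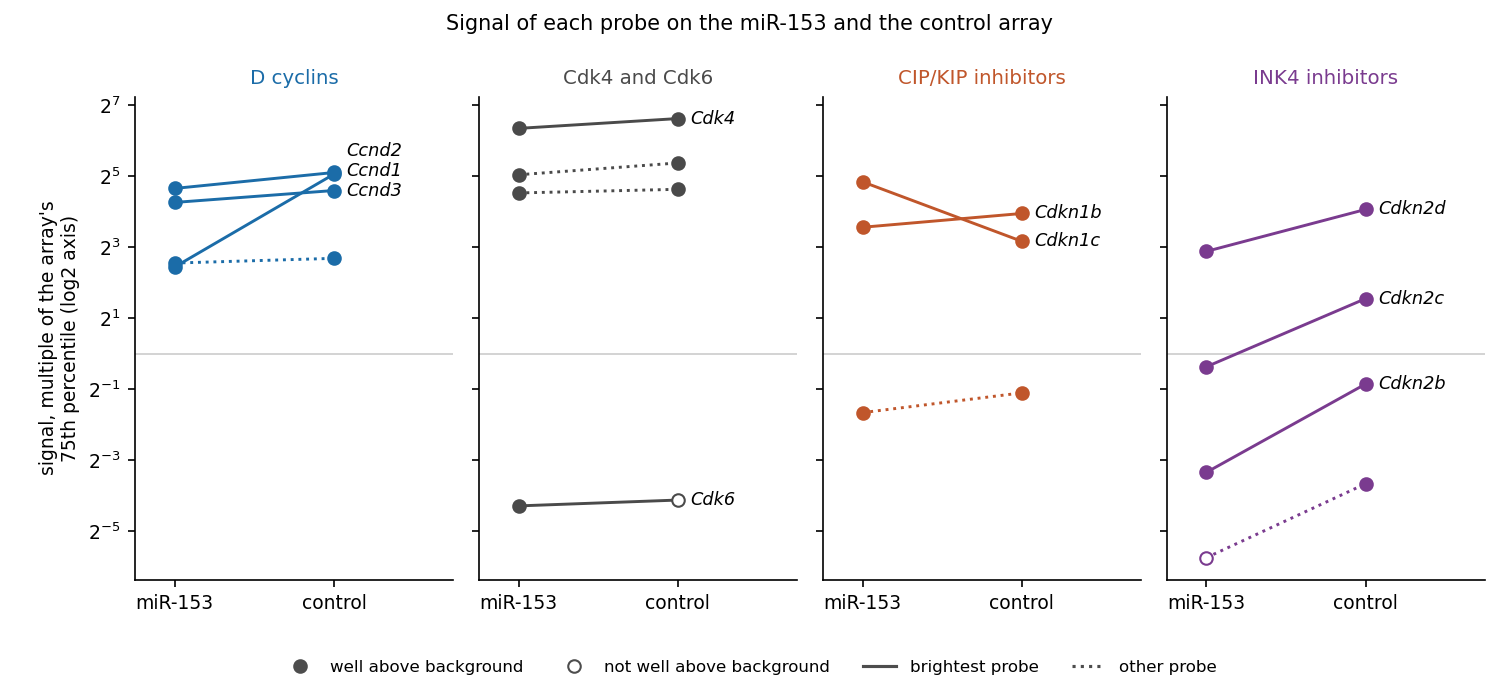
Signal of each of the 15 probes on the miR-153 array (left) and the control array (right), as a multiple of that array's 75th percentile on a log2 axis, in 1 panel per role; solid lines join the brightest probe of a gene, dotted lines its other probes, and open circles are not well above background. Lines of Ccnd1 and of the INK4 inhibitors climb steeply toward the control array, that of Cdkn1c falls toward it, and the others are close to level; only slopes, not heights, can be compared between probes.

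Among the D cyclins, Ccnd1 stood apart. Ccnd1 encodes cyclin D1, which growth factor signals induce and which is abundant in dividing progenitors. Its single probe (mm9, chr7:152116202-152116261) gave 2994 ± 299 units on the miR-153 array, against 14538 ± 1454 units on the control array. As multiples of the 75th percentile these were 5.45 on the miR-153 array and 33.4 on the control array, a 6.13-fold lower level (log2 difference -2.62 ± 0.20, the error of both spots). Only 167 of the 20473 genes (0.816%) had a difference as low or lower.

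The other D cyclins lay near the bulk of genes. Ccnd2, whose product is known in mouse cortex from intermediate progenitors, gave 13875 ± 1388 units on the miR-153 array and 15008 ± 1501 on the control array. That is 25.3 times the 75th percentile on the miR-153 array and 34.5 times on the control array, a difference of -0.45 ± 0.20 on its 1 probe (chr6:127098696-127098755). Ccnd3, the D cyclin best known from blood cells, had 19.2 times on the miR-153 array and 24.2 times on the control array. Its brightest probe (chr17:47736579-47736638) thus differed by -0.34 ± 0.20 and its other probe by -0.13 ± 0.20, the latter turning to 0.10 under scaling on spike-in RNA. On the same arrays the difference of Ccnd2 was 2.17 above that of Ccnd1, and that of Ccnd3 was 2.28 above it, so the D cyclins did not move as a set.

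The kinase genes gave little difference. Cdk4, the catalytic partner of the D cyclins, was bright on each of its 3 probes. The brightest (chr10:126504279-126504338) read 44857 ± 4486 units on the miR-153 array and 43064 ± 4306 on the control array, 81.6 times the 75th percentile on the miR-153 array and 98.9 times on the control array. Its difference was -0.28 ± 0.20, and the other probes gave -0.33 and -0.10. The sign was not stable: quantile normalization put Cdk4 at 0.29 and lowess smoothing at 0.22. Cdk6, which can stand in for Cdk4, was at the edge of detection on its 1 probe (chr5:3522106-3522165). It read 28.0 ± 5.5 units on the miR-153 array, where its flag was set, and 24.9 ± 5.9 on the control array, where it was not. Relative to the 75th percentile that was 0.0510 on the miR-153 array and 0.0572 on the control array, so no difference in Cdk6 was shown at this signal.

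**Figure D2:**
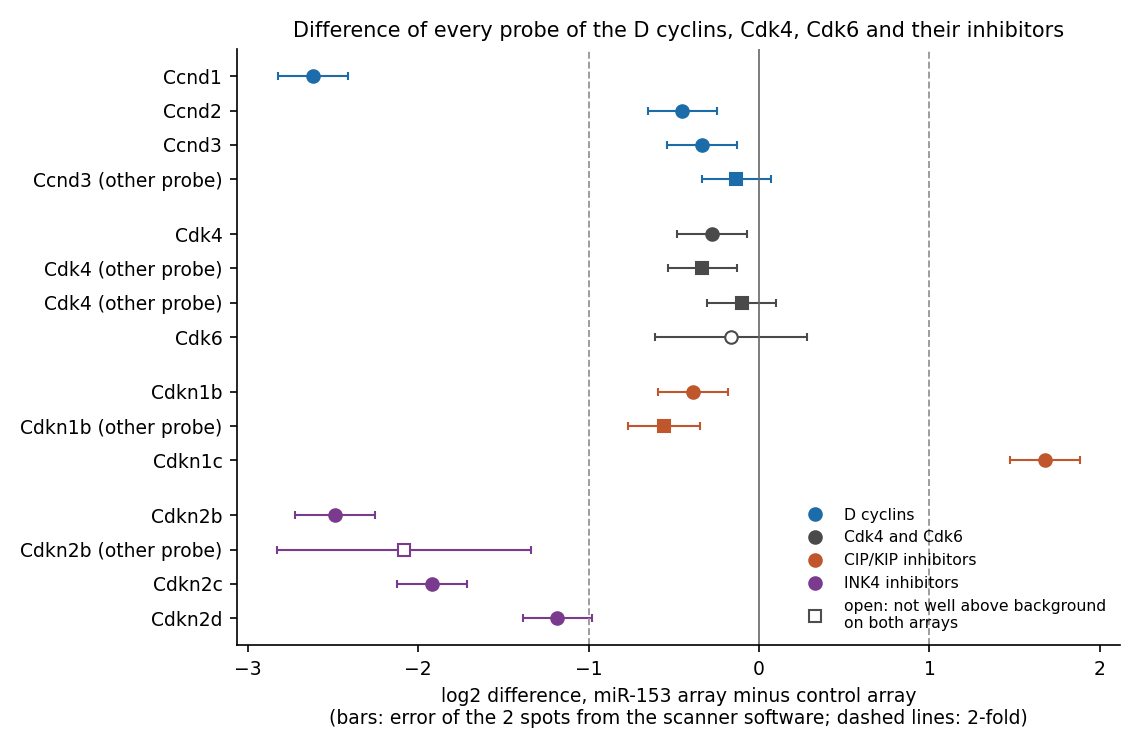
Log2 difference of each probe (miR-153 less control) with the scanner software's error of the spot pair as bars; circles are the brightest probe of a gene, squares its other probes, open symbols those not well above background on both arrays, and dashed lines mark 2-fold. Ccnd1 at -2.62 and Cdkn1c at 1.68 are the extremes, the INK4 inhibitors lie beyond the lower line, and the bar of Cdkn2d at -1.18 reaches that line.

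The CIP/KIP inhibitors went separate ways. Cdkn1c encodes p57, an inhibitor known to go up as progenitors leave the cycle and the product of an imprinted gene. On its 1 probe (chr7:150644753-150644812) it gave 15789 ± 1579 units on the miR-153 array, against 3912 ± 391 units on the control array. These were 28.7 times the 75th percentile on the miR-153 array and 8.99 times on the control array, a 3.20-fold higher level (1.68 ± 0.20). Of the 20473 genes, 561 (2.74%) had a difference as high or higher. Cdkn1b encodes p27, which is controlled largely through protein breakdown. It had 11.8 times the 75th percentile on the miR-153 array and 15.5 times on the control array (chr6:134875424-134875483), a difference of -0.39 ± 0.20. A dimmer probe of Cdkn1b, annotated to an Ensembl and not a RefSeq transcript, gave -0.56 ± 0.21. Cdkn1c lay 2.07 above Cdkn1b and 4.29 above Ccnd1 in log2 difference, and it was the only gene of the 10 at least 2-fold higher.

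The 3 INK4 genes taken here were all at least 2-fold lower, against 11.1% of all genes measured, with a median of -1.92. Cdkn2b, encoding p15, which TGF-beta is known to induce, gave 54.0 ± 6.8 units on the miR-153 array, against 240 ± 25 units on the control array. Its brightest probe (chr4:88952276-88952335), the one with the seed match shown above, was 5.62-fold lower (-2.49 ± 0.23). Raw signal there was only 2.41 times the local background on the miR-153 array and 7.23 times on the control array, and normexp background correction, which lifts dim signals, put the difference at -1.64. The other probe (chr4:88952720-88952779) had the flag for a signal well above background on the control array alone. It gave 10.2 ± 4.9 units on the miR-153 array and 34.2 ± 6.4 on the control array. Raw signal was 1.15 times the local background on the miR-153 array and 1.82 times on the control array. Set against the lowest level flagged on the miR-153 array, its control level gives a bound of 2.29-fold lower, which leaves out the spot errors.

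Cdkn2c encodes p18, known from mouse brain in dividing neural precursors. It gave 425 ± 43 units on the miR-153 array and 1275 ± 128 on the control array (chr4:109333508-109333567), or 0.774 times the 75th percentile on the miR-153 array and 2.93 times on the control array. The level was 3.79-fold lower (-1.92 ± 0.20). Cdkn2d encodes p19, the INK4 protein known from postmitotic neurons of the mouse. It gave 4054 ± 405 units on the miR-153 array and 7291 ± 729 on the control array (chr9:21092934-21092993), a 2.27-fold lower level (-1.18 ± 0.20). Scaling on spike-in RNA put Cdkn2d at -0.95, short of 2-fold. Cdkn2c and Cdkn2d have 1 probe each, so no other probe bears on them. Across the array different probes of a gene differed with an SD of 0.46 (3442 genes with several RefSeq-matched probes). That SD is not purely technical, since probes of a gene can read different transcripts. It holds no variation between replicate cultures, which could not be measured here.

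The promoters of those INK4 genes among the 10 that were most lower, and of Cdk4, which differed little, are given for the letters they hold. RefSeq windows on GRCm38.p6, 250 bases before to 50 after a start, matched 7 of the 10 genes (9 windows). Ccnd1, Ccnd2 and Cdkn1c had none. Capitals mark 3 motifs searched on both strands: TTTNNCGC, a loose E2f motif, CACGTG, the E-box that Myc proteins bind, and GGGCGG, the GC box of Sp factors. No match of a motif overlapped one of another.
Cdkn2b (chr4:89310983-89311282, minus strand): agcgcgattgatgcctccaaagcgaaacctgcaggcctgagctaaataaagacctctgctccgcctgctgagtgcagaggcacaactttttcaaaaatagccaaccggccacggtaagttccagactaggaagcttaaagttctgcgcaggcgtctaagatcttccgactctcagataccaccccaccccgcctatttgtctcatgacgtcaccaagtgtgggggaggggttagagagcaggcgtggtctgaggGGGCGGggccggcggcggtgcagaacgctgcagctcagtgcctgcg
Cdkn2c (chr4:109665323-109665622, minus strand): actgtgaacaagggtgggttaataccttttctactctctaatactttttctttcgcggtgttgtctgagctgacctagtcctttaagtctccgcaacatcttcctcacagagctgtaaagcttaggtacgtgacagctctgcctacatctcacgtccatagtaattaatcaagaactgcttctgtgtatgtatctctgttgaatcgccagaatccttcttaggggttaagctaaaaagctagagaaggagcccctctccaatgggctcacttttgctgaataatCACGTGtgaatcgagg
Cdkn2c (chr4:109666707-109667006, minus strand): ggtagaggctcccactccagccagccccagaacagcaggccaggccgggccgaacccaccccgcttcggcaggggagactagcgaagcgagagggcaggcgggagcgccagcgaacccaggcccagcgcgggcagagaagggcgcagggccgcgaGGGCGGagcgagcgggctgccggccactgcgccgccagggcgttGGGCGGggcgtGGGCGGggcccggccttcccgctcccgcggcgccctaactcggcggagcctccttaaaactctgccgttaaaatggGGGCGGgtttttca
Cdk4 (chr10:127063285-127063584, plus strand): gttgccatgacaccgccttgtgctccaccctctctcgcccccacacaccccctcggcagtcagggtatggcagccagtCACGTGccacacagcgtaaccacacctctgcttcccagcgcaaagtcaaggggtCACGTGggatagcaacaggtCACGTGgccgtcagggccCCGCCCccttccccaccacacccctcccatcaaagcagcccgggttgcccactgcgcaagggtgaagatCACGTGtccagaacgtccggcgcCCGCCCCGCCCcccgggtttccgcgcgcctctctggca
The E2f motif was in 1 of the 9 windows, that of Cdk6, and in 5.17% of 32851 promoters. The E-box was in 3, those of Cdk4, Cdk6 and 1 of Cdkn2c, and in 7.15% of promoters, and the Cdk4 window alone held 4 copies. The GC box was in 7 of the 9 and in 35.7% of promoters, with 5 copies in the window of Cdkn2d and 4 in the second window of Cdkn2c. In Cdk4, 1 pair of its 3 GC boxes overlapped. These matches are letters in a window and not shown to be bound.

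Genes that act next to and after the D cyclins were mostly lower. Of 12 measured genes listed as E and A cyclins, Cdk2 and other cell cycle regulators, 8 passed 2-fold downward, 0 upward and 4 neither way. The median was -1.72. Cdkn3, a phosphatase of the cell cycle kinases, was at -2.65, Cks2, a kinase-binding subunit, at -2.46, and Ccna2, the S phase cyclin, at -2.39. Cdk2 itself was at -1.44 and Ccne1, its first cyclin, at -1.37, while the subunits of the kinase that activates Cdk2 were close to 0, with Cdk7 at 0.26, Ccnh at 0.15 and Mnat1 at -0.28. Cdkn1a, which encodes the third CIP/KIP inhibitor, p21, had 1.79 times the 75th percentile on the miR-153 array and 7.14 times on the control array, 3.99-fold lower (-2.00). It thus stood with the lower genes and not with Cdkn1c.

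Among the Rb proteins and E2f factors, the targets of the D cyclin kinases, 5 of 13 were lower and 0 higher, and the median was -0.46. The lower ones were E2f8 (-2.46), E2f2 (-2.00), E2f7 (-1.86), E2f1 (-1.81) and Rbl1 (-1.45), which comprise both activators and repressors of the S phase genes. Rb1 was at 0.44, Rbl2 at 0.22 and E2f4 at -0.02. Of 19 S phase genes that E2f factors are known to control, 18 were lower, 0 were higher and Mcm7 (-0.91) lay between (median -1.72). Tk1, a nucleotide salvage kinase, was 8.17-fold lower (-3.03), Rrm2, of ribonucleotide reductase, was at -2.38, Mcm6, of the replicative helicase, at -2.06, and Cdc45, which activates that helicase, at -1.93. All 11 measured mitotic cyclins and kinases were lower, with a median of -2.36, and the difference of Ccnd1 lay within their range of -2.73 (Bub1, a spindle checkpoint kinase) to -1.04 (Cdc25b, a phosphatase that activates Cdk1).

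The genes listed for the removal of D cyclins and p27, some of which act on other proteins, did not share this. Of 14 genes, 0 were lower and 0 higher by 2-fold, with a median of 0.09. Skp2, the ubiquitin ligase subunit that marks p27, was at -0.46, and Fbxw7, which marks cyclin E, at 0.82. Of 21 other cyclins and kinases, many of which act in transcription or in neurons, 1 was lower and 3 were higher, and the median was 0.11. The higher ones were Cdk18 (2.47), Cdk5r1 (2.05), the neuronal activator of Cdk5, and Cdk5 itself (1.29). The lower was Ccng2 (-1.25), an atypical cyclin linked to cell cycle arrest. The background for these counts is again 11.1% lower and 9.21% higher.

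**Figure D3:**
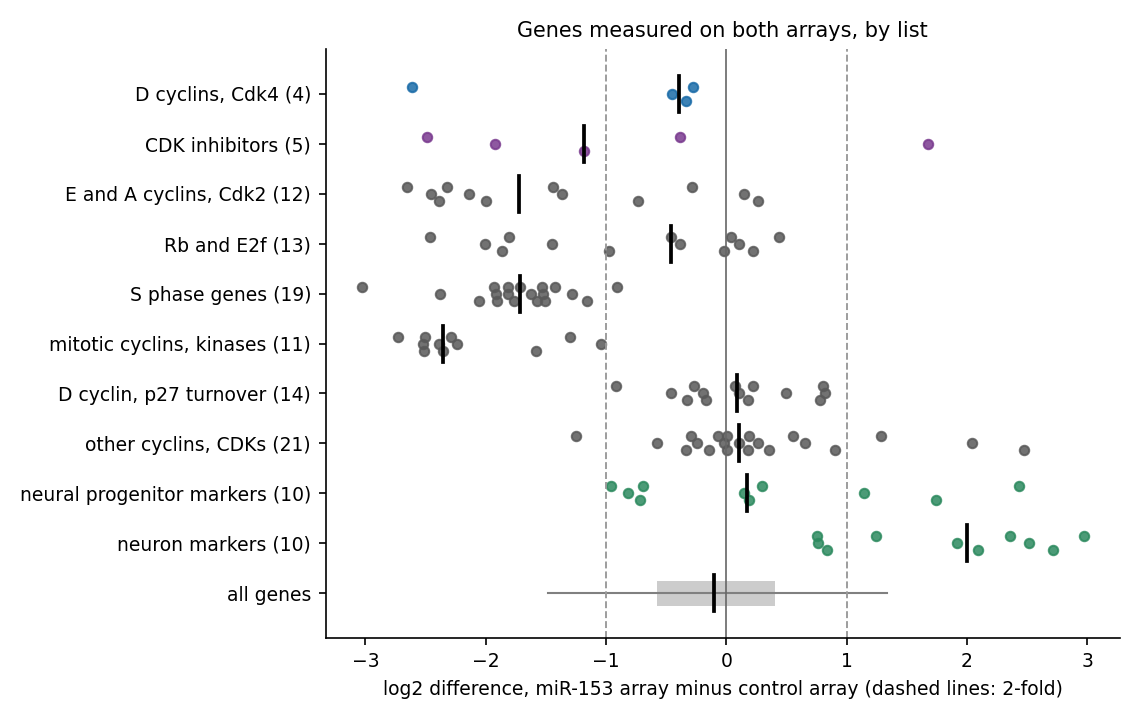
Log2 difference of each gene measured on both arrays (points, miR-153 less control), by list, with the list median as a black bar and the number of genes in brackets; for all genes the grey box spans the quartiles (-0.58 to 0.40) and the line the 5th to 95th percentile. S phase and mitotic genes lie almost wholly beyond the lower dashed line of 2-fold, the D cyclin and p27 turnover genes lie within the lines, and the CDK inhibitors are spread from -2.49 to 1.68.

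Markers of cell type also differed between the arrays, and their part in the differences above was not tested. Of 10 neuron markers, 7 were higher, 0 lower, and their summed level was 187 times the 75th percentile on the miR-153 array against 55.2 times on the control array. Progenitor markers had 3 of 10 higher and 0 lower. Their summed level was 718 on each array, of which Fabp7 made up 416 on the miR-153 array and 365 on the control array, and Vim 167 on the miR-153 array and 275 on the control array. Single members went both ways, with Hes5 at 62.8 on the miR-153 array and 11.6 on the control array, and Nes at 21.6 on the miR-153 array and 41.9 on the control array. Of 10 oligodendrocyte lineage markers 6 were higher and 1 lower, and the summed level was 132 on the miR-153 array and 89.6 on the control array. Astrocyte markers had 1 of 7 higher and 0 lower (summed level 112 on the miR-153 array and 102 on the control array). Fibroblast and mesenchyme markers had 4 of 7 higher and 0 lower at low summed levels, 9.93 on the miR-153 array and 5.75 on the control array. Pluripotency markers had 3 of 5 lower and 0 higher, with 4.12 on the miR-153 array and 8.68 on the control array. Neither of the 2 measured endothelial markers nor the 1 measured blood marker passed 2-fold. Summed over each whole list, undetected genes included, the endothelial markers had 10.5 on the miR-153 array and 16.7 on the control array, and the blood markers 1.45 on the miR-153 array and 1.56 on the control array. Each sum adds signals of different probes, so the brightest probes set it.

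**Figure D4:**
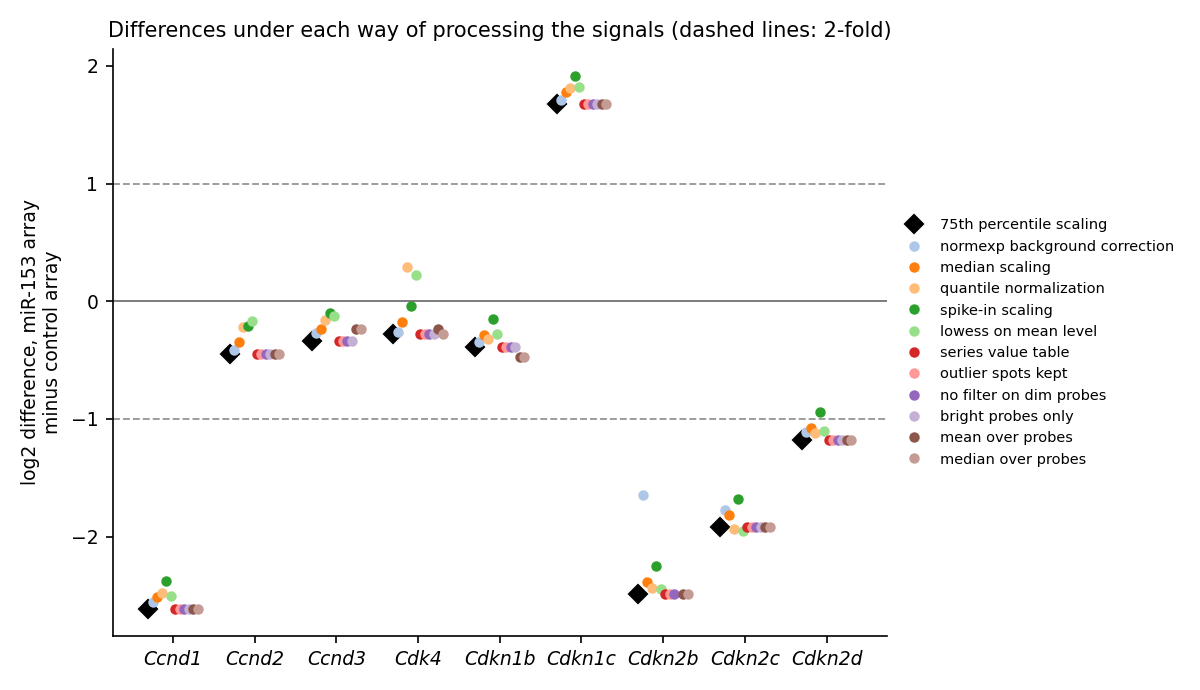
Log2 difference of the 9 measured genes (miR-153 less control) under the 75th percentile scaling (black diamonds) and each of 11 other ways of processing the signals (coloured circles), with dashed lines at 2-fold. Ccnd1, Cdkn1c and Cdkn2c stay beyond 2-fold throughout, Cdkn2d comes inside it at -0.95 with spike-in scaling, and Cdk4 is the only gene with values on both sides of 0. Ccnd1, Cdkn1c, Cdkn2c and Cdkn2d have a single probe, so the series table, kept outlier spots, dim filters and probe rules could not move their values. Median and spike-in scaling shift all genes alike.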

How the data were processed

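Total RNA of 2 neurosphere samples was labelled with cyanine-3 and hybridised to 1-colour Agilent arrays, per the labels' protocols. The deposited intensity values were made by the authors with the program Agilent Feature Extraction (version 10.7.3.1), according to the submitters' processing notes. Background is already subtracted from the processed signal, whose scale is linear and whose probe positions are on mm9, per the file headers. The authors' series table holds the same intensity divided by 485 for the miR-153 array and 381 for the control array (medians 0.0614 and 0.0662), linear, not centred and not inverted. It was used as an alternative.

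From these, log2 signal minus each array's 75th percentile over non-control spots was computed, without 229 spots flagged as outliers. Repeat spots were averaged, leaving 55674 probes, of which 26296 (47.2%) were named through RefSeq accessions and the rest by the file. The brightest probe stood for a gene. A gene well above background on 1 array only gives a bound, its level against the higher of its own signal and the lowest level well above background on the other array (log2 -4.86 for miR-153, -4.34 for control). The number of arrays limits the precision, and each sample is a single culture as far as the labels say. The 10 genes, 6 pathway lists and 8 marker lists were chosen with earlier results of these data known. Named genes were all 10, and up to 4 of each pathway or marker list with the largest difference past 2-fold. Others (Cdkn1a, Cdk2, Ccne1, Cdk7, Ccnh, Mnat1, Rbl1, Rb1, Rbl2, E2f4, Mcm7, Cdc25b, Kdr, Fabp7, Vim, Nes, Sox2, Skp2, Fbxw7) were named after their values were seen. Some results of the lists are not reported here. Alternatives were normexp (limma 3.58.1, R 4.3.3, offset 50), median, quantile, spike-in and lowess scaling, the series table, outlier spots kept, 2 filters on dim probes, 2 other probe rules, and 1.5-fold and 3-fold limits. The arithmetic was tested on known changes put into a copy of the control array's own signals. That test changed no dim genes and holds no spread between cultures.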

Additional observations from a re-analysis of the deposited data

How the results depend on the processing

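No paired analysis was possible because each group has 1 array. With the 2-fold limit kept, 3 or 4 of the 8 to 10 genes that a setting kept were lower, and 1 was higher. Over all genes in those settings, 7.49% to 12.0% were lower and 5.86% to 13.7% higher. Limits of 1.5-fold and 3-fold gave 4 and 3 lower, and 1 higher each, with no share over all genes given here. The inhibitor median ran from -1.18 to -0.79, that of the cyclins and kinases from -0.39 to -0.14, and the gap between them from -0.96 to -0.39. None of the 10 genes, and none of the 6 pathway list medians, that was past 2-fold changed sign. Cdk4, which was not past 2-fold, did. Median and spike-in scaling add at most 0.24 to a difference, so they could not turn the sign of one past 2-fold. For a gene with a single probe, only normexp, quantile and lowess could do more than shift it with all other genes. With bright probes only, Cdkn2b dropped out for its dim signal, the median of the Rb and E2f list was -0.98, against -0.46, and 0 of the other cyclins and kinases were lower, against 1; the filter leaves fewer genes. Spike-in scaling added 0.24 to every difference, put the median of all genes at 0.13, against -0.11, and 3 genes of D cyclin and p27 turnover at least 2-fold higher, against 0. Of all genes past 2-fold, 64.6% were then higher, against 45.4%. Normexp left 1532 genes lower and 1199 higher, against 2264 and 1886, and no filter on dim probes gave 4371 and 3607, with a median of -0.32. Cdk6 and the dim Cdkn2b probes are limited by signal over background.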
